A study of Mus musculus with 6 samples.

Results

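The replication-dependent histone genes are the clustered genes that supply the bulk of the histone protein made while DNA is copied. They were taken as the protein-coding genes whose mouse symbol starts with Hist1h, Hist2h, Hist3h or Hist4h, which gave 67 of the 55414 genes in the count table: 6 for the linker histone H1, 18 for H2A, 18 for H2B, 12 for H3 and 13 for H4. The cells were CD8+ T cells of OT-I genotype, a transgenic receptor for a fragment of ovalbumin, from spleen and lymph nodes. There were 2 libraries from cells 4 days after the N4 peptide, 2 from cells 4 days after T4, a weaker ligand of that receptor, and 2 from naive cells. Both peptides were given with antibodies to the costimulatory receptors OX40 and 4-1BB, which naive cells are not labelled as having received. The labels do not say whether replicates came from separate mice, so p-values measure only the spread between these libraries.

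Core histones H2A, H2B, H3 and H4 form the octamer around which DNA is wrapped, and H1 binds the DNA between octamers. Most of these genes have no introns and are transcribed in S phase, when new DNA has to be packaged. Their mRNAs usually end just after a short stem-loop, bound by SLBP, in place of a poly(A) tail. The libraries were made with a poly(A) kit, so they sample histone RNA that carries a tail or that was primed at internal runs of A, and not the whole pool.

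The depth was 269033066 to 335968843 estimated counts per library, and all levels below are CPM (counts relative to the library total, scaled with TMM). All 9 CD8 T cell markers checked (Cd8a, Cd8b1, Cd3e, Cd3d, Cd3g, Trac, Cd2, Thy1 and Lck) were above 1 CPM in all 6 libraries. Markers of other cells were far from even: 10 neutrophil genes summed to 38.5 to 47.9 CPM in N4, 5.52 to 12.9 in T4 and 2474 to 25474 in naive libraries. For 9 erythroid genes the sums were 373 to 442, 6864 to 8440 and 3633 to 9436 CPM, with Alas2 and Epb42 at 0 in both N4 libraries. The part that these other cells have in the histone values was not tested. In bulk RNA, fewer cells of a type and less RNA per cell cannot be told apart.

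The stem-loop was looked for in the GENCODE M21 transcript models (GRCm38). An mRNA that ends at it without a tail can be read in a poly(A) library only by another route. A loop in a model does not show that the mRNA ends there. A 16-base stem-loop was found in 45 of the 67 genes, and the variants found there occurred in 51 of 141767 models of all genes (0.036%). The other 22 had none in the model, which does not show that their mRNAs lack it. Several of these models are short (312 bases for Hist1h4k, 381 for Hist1h2bl), and a loop beyond the end of a model would be missed. Each line below gives the 12 bases before the loop in lower case and the loop in capitals. The genes shown are among the H2A, H2B and H4 genes with the highest mean CPM.
Hist1h2ap: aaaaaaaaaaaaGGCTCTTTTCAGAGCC
Hist1h2ao: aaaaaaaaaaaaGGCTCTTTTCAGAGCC
Hist1h2ae: aaaaaaaacaaaGGCTCTTTTCAGAGCC
Hist1h2ag: atcgccaacaaaGGCTCTTTTCAGAGCC
Hist1h2bg: tcctaacccaaaGGCTCTTTTCAGAGCC
Hist1h4d: ccaaaaaccaaaGGCCCTTTTCAGGGCC
Hist1h4i: atgctacttaaaGGCCCTTTTTAGGGCC
The form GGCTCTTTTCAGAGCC was found in 25 genes, of types H1, H2A, H2B and H3. The form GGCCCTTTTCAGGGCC was found in 7 genes, all of type H4. Hist1h2ao and Hist1h2ap had 12 A among the 12 bases before the loop and Hist1h2ae had 11, against a median of 6 over the 45 genes. Whether priming at these A runs adds to the counts was not tested.

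All 5 types stood higher in both stimulated groups than in naive cells. The 67 genes together made up 1.22% and 1.17% of all counts in the N4 libraries, 1.03% and 1.09% in the T4 libraries and 0.259% and 0.397% in the naive libraries, a share that does not depend on TMM. In CPM they summed to 16572 ± 2365 in N4, 8047 ± 627 in T4 and 3375 ± 1965 in naive (SD, n = 2 each). The H2A genes held most of this in every library, between 81.1% and 88.8% of the histone counts.

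**Figure D1:**
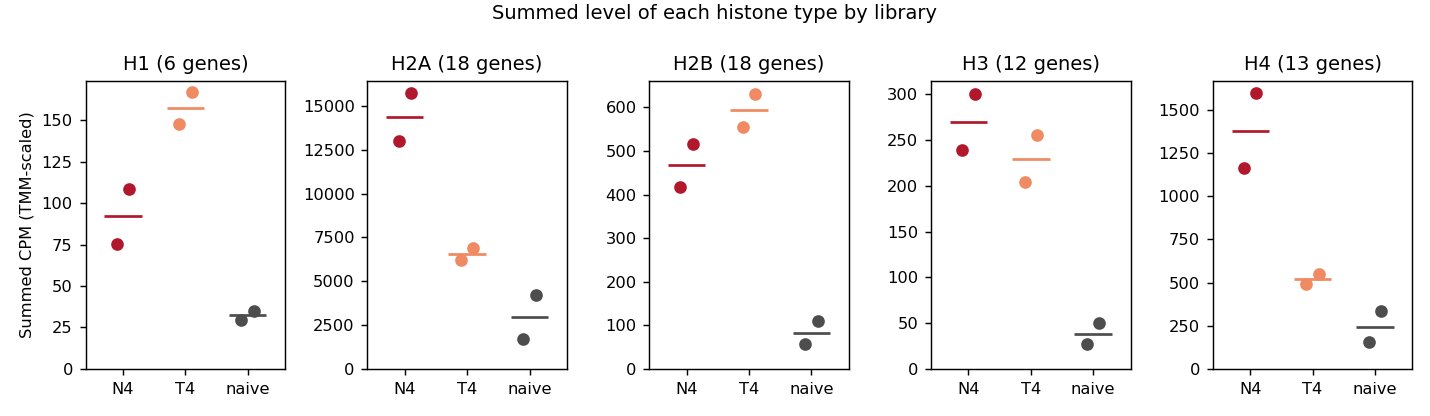
Summed level of the genes of each histone type, in TMM-scaled CPM on linear axes that start at 0; points are the 2 libraries of a group and bars their mean. For every type both naive libraries lie below all 4 stimulated libraries, while the order of N4 and T4 differs between types.

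Of the 66 genes tested, 52 were higher in N4 than in naive and 0 were lower (edgeR quasi-likelihood test, Benjamini-Hochberg adjusted p under 0.05), against 4.87% of all genes called higher and 7.18% called lower. Without adjustment 59 had a p under 0.05 (30.8% of all genes), and DESeq2 called 58 higher (11.5% of all genes) and 0 lower (16.8%). With library size scaling 50 were higher (3.02% of all genes) and 1 lower (7.73%), Hist3h2a. Its log2 fold change was -1.192 there and -1.145 without naive replicate 1. Both N4 libraries lay above both naive libraries for 62 genes (26.5% of all genes) and below them for 1 (28.9%). The calls comprised 4 of 5 H1, 13 of 18 H2A, 12 of 18 H2B, 10 of 12 H3 and 13 of 13 H4 genes. The median log2 fold change was 2.51, beside -0.09 for all genes. By type it was 2.55 for H1, 2.28 for H2A, 3.14 for H2B, 2.96 for H3 and 2.37 for H4. The number called depended on single libraries and on the groups fitted, as it did over all genes. It was 20 when only N4 and naive were fitted, where 1.40% of all genes were called higher. With 1 library left out, the median log2 fold change of the histone genes lay between 1.89 and 3.2.

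T4 against naive gave a median of nearly the same size, 2.30, beside 0.00 for all genes, but only 6 calls. The 6 higher genes were the linker histone genes Hist1h1a, Hist1h1b, Hist1h1d and Hist1h1e and the H2B genes Hist1h2bq and Hist1h2br, and 0 genes were lower, where 0.0826% of all genes were called higher and 0.0348% lower. Without adjustment 53 had a p under 0.05 (14.5% of all genes), and DESeq2 called 45 higher (4.51% of all genes) and 0 lower (5.36%). Hist1h1b lost its call with GC correction and Hist1h1e with library size scaling. By type the median log2 fold change was 3.0 for H1, 1.36 for H2A, 2.97 for H2B, 2.61 for H3 and 1.68 for H4. Both T4 libraries lay above both naive libraries for 60 genes (26.2% of all genes) and below them for 0 (22.6%). The calls depended on single libraries, as they did over all genes. When only T4 and naive were fitted 0 were left, as over all genes (0%). With 1 library left out, the median log2 fold change of the histone genes lay between 1.64 and 2.69. Both comparisons share the naive libraries, so their values stand side by side and are not independent results.

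Both naive libraries differed from each other in the histone genes. Naive replicate 2 was above naive replicate 1 for 64 of the 66 tested genes, by a median of 2.24-fold, while this held for 10881 of all 23003 genes kept. The tested H1 genes differed least, by a median of 1.12-fold. Neutrophil marker sums were 2474 and 25474 CPM in the same libraries, and B cell marker sums 684 and 2730 CPM. Their part in the difference was not tested. In the stimulated groups replicate 2 was also above replicate 1, by less. This held for 64 of 67 genes in N4 (median 1.29-fold) and 63 of 67 in T4 (median 1.13-fold). Of all 23003 genes kept, it held for 11221 in N4 and 11629 in T4.

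**Figure D2:**
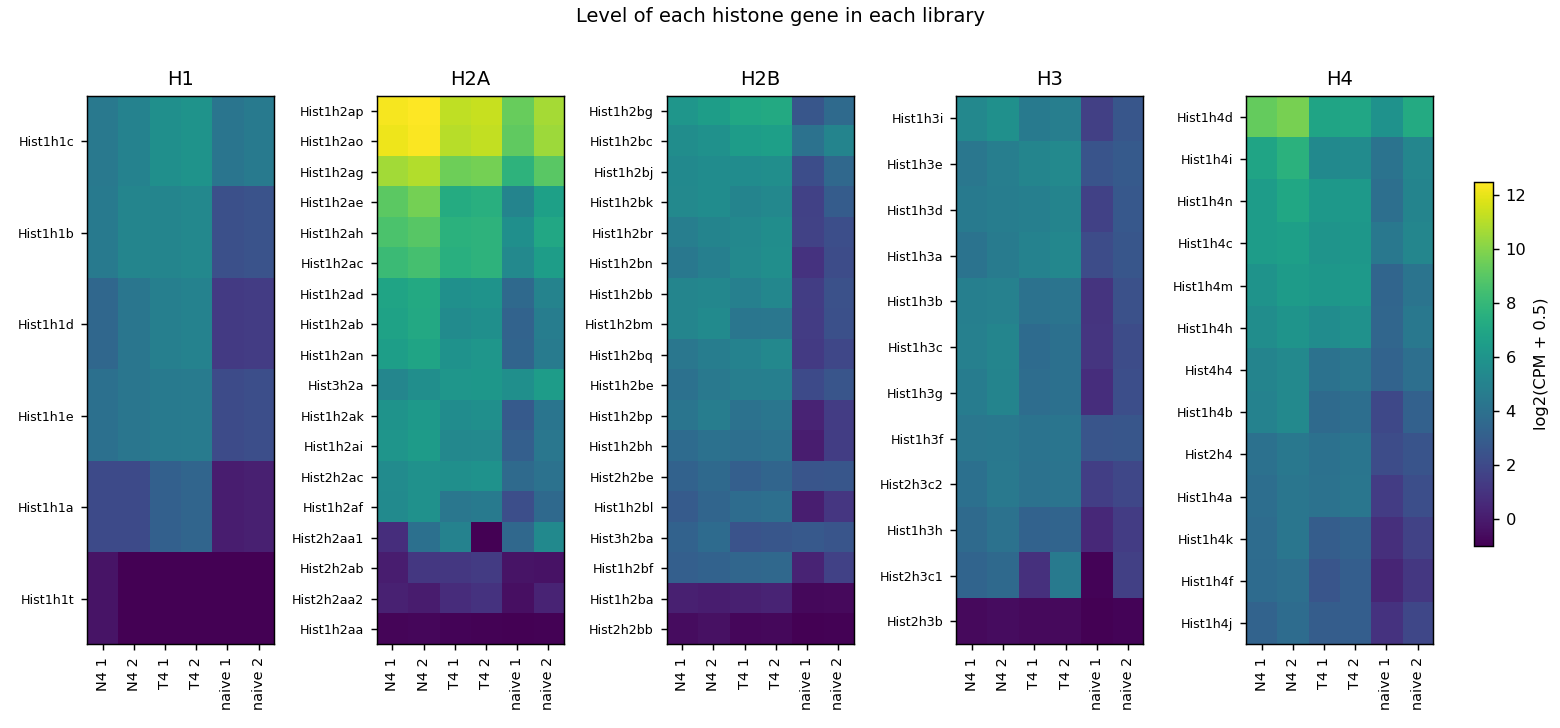
Level of each of the 67 genes in each of the 6 libraries, as log2 of CPM plus 0.5, by type and ordered by mean CPM. Hist1h2ap, Hist1h2ao and Hist1h2ag are the brightest rows, and most rows are darkest in naive replicate 1.

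The H1 genes were the type with the largest ratio of T4 to N4. Summed H1 was 75.4 and 108.5 CPM after N4, 147.7 and 166.8 CPM after T4 and 29.4 and 35.2 CPM in naive cells. The 3 groups did not overlap, and T4 was 1.71-fold above N4; the log2 ratio of N4 to T4 went from -0.77 to -1.66 with library size scaling. Hist1h1a (H1f1, chr13:23763666-23764406) stood at 3.55 and 3.60 CPM after N4, 8.30 and 10.2 after T4 and 0.560 and 0.657 in naive cells. Here too every T4 value lay above every N4 value, and the naive values were lowest. It was lower in N4 than in T4 by a log2 fold change of -1.37 ± 0.30 (SE; edgeR adjusted p = 0.0477), and higher than in naive by 2.55 ± 0.31 in N4 (edgeR adjusted p = 0.0109) and by 3.92 ± 0.33 in T4 (edgeR adjusted p = 0.0468).

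Hist1h1c (H1f2) is an H1 gene with a model that runs 840 bases past its stem-loop. Its level was 21.7 and 31.6 CPM after N4, 53.1 and 61.8 CPM after T4 and 18.7 and 23.3 CPM in naive cells. N4 and naive overlapped, and T4 lay above both. N4 against naive gave 0.35 ± 0.28 (edgeR adjusted p = 0.449), and with library size scaling this estimate was -0.20. Hist1h1c held 63.4% and 66% of all H1 counts in naive cells, 28.7% and 29.1% in N4 and 35.9% and 37.0% in T4. Hist1h1b (H1f5) took the opposite course: 14.9% and 14.0% of H1 counts in naive cells, 31.2% and 32.5% in N4, and 23.7% and 23.8% in T4. Hist1h1t, the testis H1, was at 0.331 CPM in 1 N4 library and at or near 0 in the others, and was not tested.

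Summed H2A was 13003 and 15724 CPM after N4, 6203 and 6884 after T4 and 1718 and 4232 in naive cells. Its log2 ratio of N4 to T4 fell from 1.13 to 0.27 with library size scaling. H2A was dominated by a few near-identical genes. Hist1h2ap (chr13:21833026-21833507) was at 5020.0 and 5945 CPM after N4, 2356 and 2632 after T4 and 655 and 1623 in naive cells. N4, T4 and naive did not overlap, in that order from high to low. Hist1h2ap and Hist1h2ao together held 72.2% to 73.6% of H2A counts in all 6 libraries. Of the 75-base stretches of the Hist1h2ao model, 93.1% also occur in Hist1h2ap, so the split of reads between them is uncertain and their like values are not separate observations. Hist1h2ap gave 2.27 ± 0.47 in N4 against naive (edgeR adjusted p = 0.0344), 1.13 ± 0.46 in T4 against naive (edgeR adjusted p = 0.339) and 1.14 ± 0.46 in N4 against T4 (edgeR adjusted p = 0.164).

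Hist1h2ae (chr13:23570517-23571220) was the H2A gene with the smallest p between N4 and T4. Its level was 542 and 820 CPM after N4, 160 and 181 CPM after T4 and 34.2 and 100.4 CPM in naive cells. The groups did not overlap, and its share of H2A counts was 4.17% and 5.22% after N4, 2.57% and 2.63% after T4 and 1.99% and 2.37% in naive cells. N4 against T4 gave 2.00 ± 0.54 (edgeR adjusted p = 0.0711), which missed the threshold. Hist3h2a, whose exons overlap those of Trim17, went another way: 36.6 and 49.6 CPM after N4, 66.9 and 69.7 after T4 and 53.0 and 86.3 in naive cells. Hist2h2aa1 was at 31.2 CPM in 1 T4 library and at 0 in the other, and 88.9% of its 75-base stretches occur in other genes.

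Summed H2B stood higher in T4 than in N4, though the median over its genes turned with GC correction to 0.10 in favour of N4, with 9 of 18 genes positive. Summed H2B was 418 and 515 CPM after N4, 555 and 632 after T4 and 57.3 and 109.4 in naive cells. The groups did not overlap, and T4 was 1.27-fold above N4. With library size scaling the log2 ratio of N4 to T4 went from -0.35 to -1.22. In that setting 6 H2B genes were called lower in N4, where 7.55% of all genes were. Hist1h2bg (chr13:23571396-23572013) was at 68.9 and 91.0 CPM after N4, 131 and 144 after T4 and 5.68 and 12.2 in naive cells. It gave 3.16 ± 0.43 in N4 against naive (edgeR adjusted p = 0.0134), 3.94 ± 0.44 in T4 against naive (edgeR adjusted p = 0.0610) and -0.78 ± 0.40 in N4 against T4 (edgeR adjusted p = 0.248). Hist1h2bc held 28.7% and 30.4% of H2B counts in naive cells, against 11.4% and 10.9% in N4 and 15.9% and 15.3% in T4. Hist1h2br and Hist1h2bq, both called in T4, share 99.8% of the 75-base stretches of the first.

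H3 was the type whose summed level was nearest between the peptides with TMM scaling, though not with library size scaling. Summed H3 was 239 and 301 CPM after N4, 204 and 255 after T4 and 27.1 and 50.2 in naive cells. N4 and T4 overlapped, and the ratio of their means, 1.17 in favour of N4, turned with library size scaling to a log2 value of -0.64. Hist1h3i, the most abundant H3 gene per kilobase, was at 39.4 and 53.7 CPM after N4, 23.4 and 26.9 after T4 and 2.43 and 5.61 in naive cells. Its values did not overlap between groups with TMM scaling. Between N4 and T4 that order rests on TMM. Its counts were 8701 and 10985 in N4 and 9444 and 10399 in T4, which overlap when taken relative to the library totals. With TMM, Hist1h3i gave 3.53 ± 0.47 in N4 against naive (edgeR adjusted p = 0.0127) and 0.89 ± 0.43 in N4 against T4 (edgeR adjusted p = 0.226). Hist1h3a had the opposite order, with 17.1 and 23.9 CPM in N4 and 31.1 and 37.5 in T4.

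H4 held the gene that set N4 apart most. Hist1h4d (H4c4, chr13:23581598-23582735) was at 633 and 849 CPM after N4, 120 and 128 CPM after T4 and 58.1 and 151.9 CPM in naive cells. T4 lay inside the range of the naive libraries, and both N4 libraries lay above all others. N4 against T4 gave 2.58 ± 0.49 (edgeR adjusted p = 0.0374), N4 against naive 2.82 ± 0.50 (edgeR adjusted p = 0.0233) and T4 against naive 0.24 ± 0.46 (edgeR adjusted p = 0.888), the last turning to -0.39 without naive replicate 1. Hist1h4d made up 54.4% and 53.2% of H4 counts after N4, 24.2% and 23.2% after T4 and 37.9% and 45.0% in naive cells. Its model runs 770 bases past the stem-loop, and 3.67% of its 75-base stretches occur in another gene. Hist1h4i, whose model runs 330 bases past, was at 118 and 200 CPM after N4, 41.5 and 44.5 after T4 and 16.9 and 36.7 in naive cells. Summed H4 was 2.64-fold higher in N4 than in T4, and without Hist1h4d the log2 ratio fell from 1.40 to 0.68. With library size scaling the log2 ratio over all H4 genes was 0.52.

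Between N4 and T4, 1 gene was called higher (Hist1h4d, where 3.48% of all genes were) and 1 lower (Hist1h1a, where 4.47% were), which is below the background in both directions. Without adjustment 18 genes had a p under 0.05, where 29.2% of all genes did, so this too is near the background. Both N4 libraries lay above both T4 libraries for 32 genes (27.6% of all genes) and below them for 18 (37.6%). The 32 comprised 13 H2A, 4 H2B, 6 H3 and 9 H4 genes, and the 18 comprised 4 H1, 2 H2A, 9 H2B and 3 H3 genes. The median log2 fold change was -0.99 for H1, 0.88 for H2A, -0.19 for H2B, 0.26 for H3 and 0.60 for H4, beside -0.20 for all genes. With library size scaling the median of all genes moved to -1.05, and the medians of H2A (-0.01), H3 (-0.61) and H4 (-0.29) turned negative while staying above it. Neither gene kept its call without any 1 of the 4 N4 and T4 libraries, when calls over all genes became fewer too. Hist1h1a also lost its call with GC correction (edgeR adjusted p = 0.108). Without naive replicate 1 or 2, 24 and 22 genes were called, and 28 when only N4 and T4 were fitted.

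**Figure D3:**
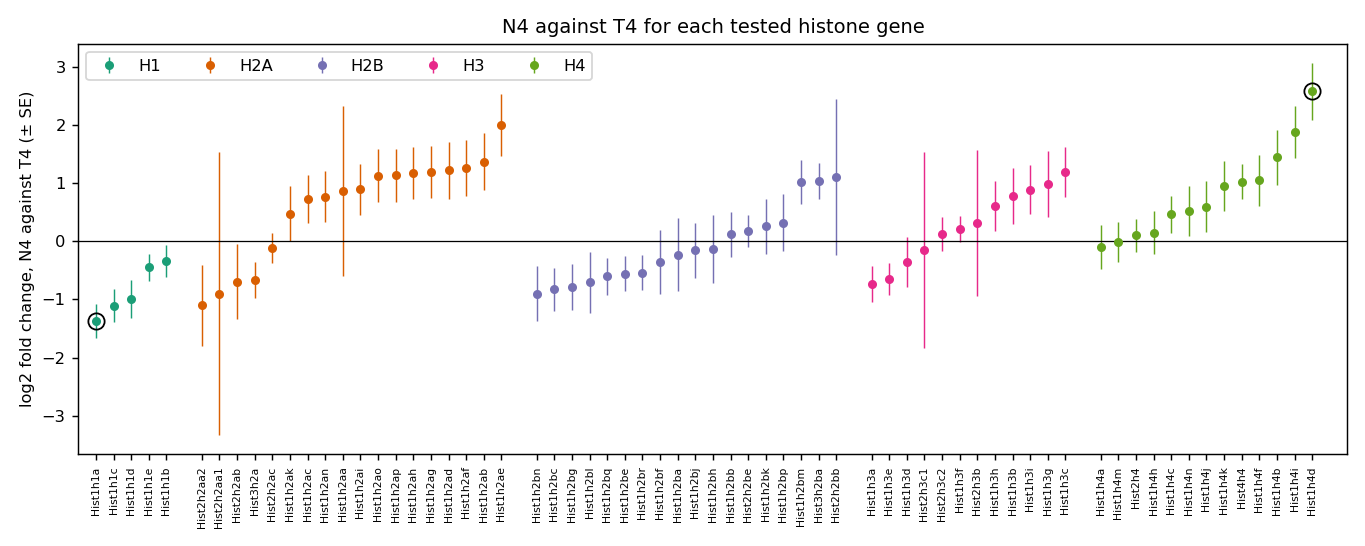
Log2 fold change of N4 against T4 with its standard error for each of the 66 tested genes, ordered within type. Circled points pass the adjusted threshold (Hist1h1a and Hist1h4d); all 5 H1 genes lie below 0, and 13 of 18 H2A and 11 of 13 H4 genes lie above it, which with library size scaling falls to 9 and 6.

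The composition of the histone counts does not depend on how libraries are scaled, and it differed between the peptides. H2B made up 2.81% and 2.83% of histone counts in N4 and 7.30% and 7.44% in T4. H1 made up 0.506% and 0.595% in N4 and 1.94% and 1.97% in T4. H2A made up 87.3% and 86.2% in N4 and 81.6% and 81.1% in T4. In each of these the N4 and T4 libraries did not overlap. Naive cells lay nearer to N4 for H2B (2.89% and 2.30%) and H2A (86.5% and 88.8%), while for H1 they lay between (1.48% and 0.739%).

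H2A and H2B genes often lie head to head, sharing the stretch between their starts, which allows both to be compared inside each library. There were 12 such pairs with starts 176 to 306 bases apart. The ratio of H2A to H2B counts was higher in both N4 than both T4 libraries in 11 of 12 pairs, the exception being Hist2h2ac with Hist2h2be. The fold change of N4 against T4 was larger for the H2A gene in the same 11 pairs, and the median difference over all 12 pairs was 1.47 on the log2 scale. Against naive cells the H2A gene had the larger fold change in 4 of 12 pairs for N4 and in 1 of 12 for T4. Among the 11, Hist1h2aa with Hist1h2ba lies near the floor, with Hist1h2aa at 0.0589 and 0.0830 CPM after N4 and 0.0545 and 0.0232 after T4. Several H2A genes share sequence, so the 12 pairs are not independent, and no test was made over them. Unpaired H2A and H2B genes were not compared in this way. Over all tested genes of each type the median of N4 against T4 was 0.88 for H2A and -0.19 for H2B. The count of pairs thus does not show a trait particular to head-to-head genes.

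The pair Hist1h2ae and Hist1h2bg differed most. Its ratio was 7.87 and 9.01 after N4, 1.22 and 1.25 after T4 and 6.02 and 8.20 in naive cells. T4 stood apart, and N4 and naive overlapped. The 150 bases before each start are printed because they share 121 bases, read on opposite strands, from RefSeq (GRCm38.p6): chr13:23571221-23571370 on the minus strand for Hist1h2ae and chr13:23571250-23571399 on the plus strand for Hist1h2bg. Capitals mark, on either strand, the box CCAAT, the box TATAAA and the octamer ATTTGCAT.
Hist1h2ae: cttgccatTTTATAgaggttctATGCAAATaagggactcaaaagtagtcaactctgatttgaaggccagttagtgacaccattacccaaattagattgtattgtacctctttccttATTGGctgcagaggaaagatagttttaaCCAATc
Hist1h2bg: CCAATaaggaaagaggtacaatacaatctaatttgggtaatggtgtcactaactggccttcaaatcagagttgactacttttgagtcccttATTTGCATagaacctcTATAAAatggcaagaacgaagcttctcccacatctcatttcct
ATTTGCAT, the octamer bound by POU factors, was found within 250 bases before to 50 after the start in 7 of 18 H2A and 6 of 16 H2B genes and in 0 of 28 others, against 1.74% of 32851 promoters. CCAAT was found in 85.5% of the 62 matched promoters against 37.4% of all, but in only 3 of 12 H4 promoters. TATAAA was found in 56.5% against 13.6%. A match is a description of the letters and not a site. Head-to-head genes share part of the window, so the same match can count for both, as with the octamer printed above.

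**Figure D4:**
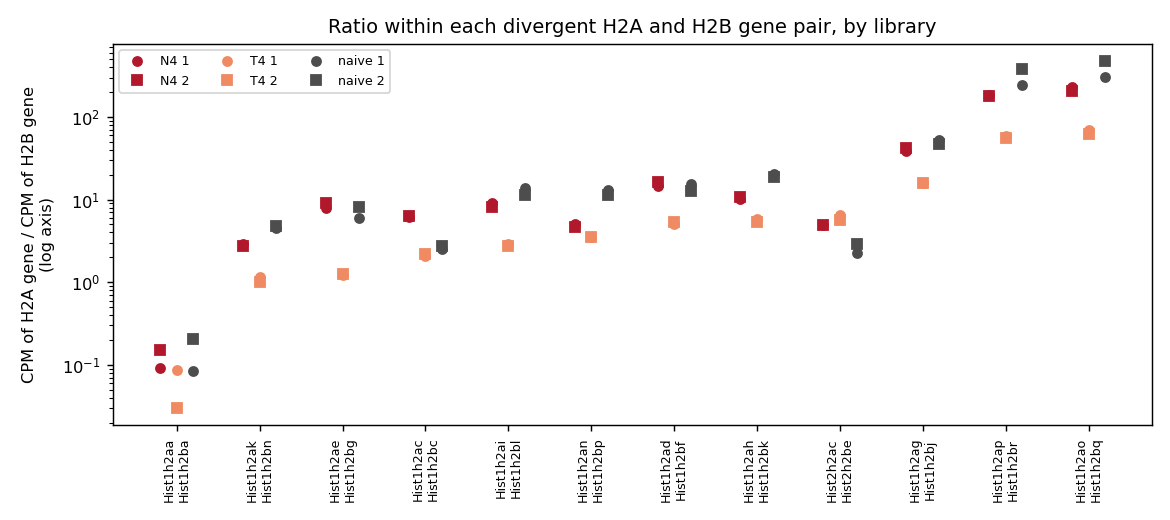
CPM of the H2A gene divided by CPM of the H2B gene in each library, on a log axis, for the 12 head-to-head pairs; circles are replicate 1 and squares replicate 2. The T4 points lie below both N4 points in 11 pairs, and Hist2h2ac with Hist2h2be is the exception.

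The share of histone counts in transcript models that run more than 20 bases past the stem-loop was alike in the groups: 59.4% ± 0.59 in N4, 58.6% ± 0.08 in T4 and 59.6% ± 0.59 in naive (SD, n = 2 each). Within H4 it was 93.5% ± 0.13 in N4, 84.2% ± 0.27 in T4 and 93.3% ± 0.95 in naive. Within H1 it was 64.1% ± 0.09, 70.4% ± 0.43 and 83.7% ± 0.68. The Hist1h2ao model ends 31 bases past its loop and the Hist1h2ap model 3 bases past. The share over all types thus depends on the split of reads between these genes, which is uncertain. With a cut at 100 bases it was 14.4% in N4, 14.2% in T4 and 13.9% in naive. Models in which no loop was found count as not running past. These shares follow which genes are counted, since most genes have 1 model, and they do not show where a given mRNA ends.

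Genes that act with the histones were read from the same fit. Of 19 genes for histone mRNA transcription and 3′ end processing, 0 were called in any comparison by edgeR, with 6, 3 and 4 at an unadjusted p under 0.05 in N4 against naive, T4 against naive and N4 against T4, where DESeq2 called 5, 0 and 4. Over all genes 30.8%, 14.5% and 29.2% had such a p, and DESeq2 called 28.3%, 9.87% and 27.3%. These counts are thus near or below the background. Slbp, the stem-loop binding protein, was at 84.2 and 87.4 CPM after N4, 87.2 and 70.5 after T4 and 50.7 and 31.6 in naive cells. Both stimulated groups lay above naive, without a call (edgeR adjusted p = 0.0726 and 0.243). Npat, which activates histone gene transcription, was at 2.46 and 3.91 CPM after N4, 1.63 and 2.21 after T4 and 1.13 and 1.37 in naive cells.

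Among 30 genes of DNA replication and nucleotide supply, 19 were higher in N4 than in naive (4.87% of all genes) and 0 lower (7.18%). In T4 against naive 0 were called by edgeR, with 20 at an unadjusted p under 0.05 (14.5% of all genes). DESeq2 called 13 higher there (4.51% of all genes). Between N4 and T4, 4 were higher (3.48% of all genes) and 0 lower (4.47%). Ccne2, a cyclin of entry into S phase, was at 41.6 and 55.8 CPM after N4, 4.82 and 6.54 after T4 and 2.56 and 4.82 in naive cells, and was higher in N4 than in T4 by 3.10 ± 0.41 (edgeR adjusted p = 0.0229). Of 20 histone chaperones and related genes, 6 were higher in N4 than in naive (4.87% of all genes) and 3 than in T4 (3.48%). Hat1, which acetylates new H4, was among them, with 226 and 256 CPM after N4, 66.6 and 66.5 after T4 and 51.2 and 70.4 in naive cells (N4 against T4 1.86 ± 0.26, edgeR adjusted p = 0.0246). Of 11 histone genes outside the clusters, with polyadenylated mRNA, 2 were higher in N4 than in naive (4.87% of all genes). These were Cenpa, the centromeric H3, and H2afz. H2afz was at 8883 and 11791 CPM after N4, 2857 and 3082 after T4 and 1624 and 3344 in naive cells, with T4 inside the naive range. H1fx, an H1 variant, was lower in N4 than in T4 by a log2 fold change of -4.09 ± 0.86 (edgeR adjusted p = 0.0444), with 0.199 and 0.0440 CPM after N4, 2.07 and 2.1 after T4 and 0.239 and 0.216 in naive cells.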

How the data were processed

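The authors deposited estimated counts per gene and per transcript, not normalized, for 6 libraries of polyadenylated RNA. Per the submitters' processing notes, the build was mm39 and the tools included StringTie 2.1.0, DESeq2 1.30.1 under R 4.0.5, and STAR 2.7.1a with SAMtools 1.9, without roles. Models, lengths and coordinates came from GENCODE M21 on GRCm38, and no coordinate was converted. The values are whole numbers, and their relation to reads is unknown. The kit does not mark strand, and exons of 24 of the 67 genes overlap another gene. Genes were tested with edgeR 4.0.16 in R 4.3.3 (TMM, filterByExpr by group, 23003 genes kept, quasi-likelihood test over all 6 libraries, Benjamini-Hochberg, threshold 0.05), with a common coefficient of variation of 0.67. DESeq2 1.42.0 was an alternative. The procedure was tested on simulated counts. CPM are given per library or as mean ± SD. Type sums, shares and pair ratios were not tested, since with 2 libraries a group the smallest exact permutation p is 0.33. The genes named are those called in any comparison, the 3 most abundant per kilobase of each type and the smallest p of each type, 54 in all, with up to 4 genes of each other list. Hist1h1t, Hist1h2aa, Hist1h2ba, Hist1h2bc, Hist3h2a, Hist2h2aa1, Hist2h2ac and Hist2h2be, where outside it, were singled out after their values were seen. The genes and lists were chosen with earlier results of these data known.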

Additional observations from a re-analysis of the deposited data

How the results depend on the processing

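Calls rest on 3 residual degrees of freedom, and the direction of the named genes held better than their calls. Values of genes called in that comparison, among the 3 most abundant of their type or with its smallest p turned sign in 8 cases, none of them called: Hist1h1c in N4 against naive (-0.20) and Hist1h4n in N4 against T4 (-0.37) with library size scaling; in N4 against T4 with GC correction Hist1h1b (0.14), Hist1h2bj (0.46) and Hist1h4m (0.63); Hist1h4m also without N4 replicate 1 (0.21) or T4 replicate 2 (0.05), with a lowest value of -0.27 without N4 replicate 2; and Hist1h4d in T4 against naive without naive replicate 1 (-0.39, and 1.09 without naive replicate 2). Over all 54 named genes and 12 settings, signs turned in 1 case in N4 against naive, 2 in T4 against naive and 34 in N4 against T4 (21 genes), of which 15 came with library size scaling, and none was called. The choice of which to list by name was made after these turns had been seen.

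Histone genes called in N4 against naive numbered 20 with only those 2 groups fitted and 9 to 54 with 1 library left out. In T4 against naive there were 18 with library size scaling, 42 without a filter, 0 with 2 groups, 45 with DESeq2 and 0 to 47 with 1 library left out. In N4 against T4 there were 13 (1 higher, 12 lower), 7, 28, 10 and 0 to 24 in that order.

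With the replicate block the histone calls were 53 in N4 against naive, 22 in T4 against naive and 6 in N4 against T4. Of all genes, 15.7%, 0.565% and 14.6% were called in these comparisons. Over all genes kept, the numbers did not pair the libraries: deviations of same-numbered libraries correlated at 0.02, 0.08 and 0.04. Most histone genes were higher in replicate 2 in every group. The correlations over all genes cannot show whether the histone genes share a shift between replicate numbers.

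DESeq2 and leaving libraries out were added for the other lists after seeing the data, as was library size scaling. In N4 against naive, N4 against T4 and T4 against naive in turn, DESeq2 called 5, 4 and 0 genes of histone mRNA processing, 5, 5 and 3 histone genes outside the clusters, and for chaperones 7 in N4 against T4 and 1 in T4 against naive. For replication genes it called 11 in N4 against T4 and 13 in T4 against naive. Over all genes DESeq2 called 28.3%, 27.3% and 9.87% in N4 against naive, N4 against T4 and T4 against naive. Library size scaling gave 3 processing genes in N4 against T4, 4 and 3 histone genes outside the clusters (N4 against naive, N4 against T4), 3 and 1 chaperones, and 6 and 1 replication genes (N4 against naive, T4 against naive). With 1 library left out, N4 against naive gave 0 to 3 processing genes, 0 to 5 histone genes outside the clusters, 0 to 8 chaperones and 7 to 22 replication genes. N4 against T4 gave 0 to 1, 0 to 7, 0 to 8 and 0 to 10, and T4 against naive 0 to 2 replication genes and 0 of the others.

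Log2 ratios of type sums moved with library size scaling for H1 to 0.96 (N4 against naive), 2.61 (T4 against naive) and -1.66 (N4 against T4), and in N4 against T4 to 0.27 for H2A, -1.22 for H2B, -0.64 for H3 (reversed) and 0.52 for H4. Without Hist1h1c the H1 ratios were 2.52 and 3.13 against naive, and without Hist1h4d the H4 ratio of N4 to T4 was 0.68. The share past the stem-loop was 14.4%, 14.2% and 13.9% (N4, T4, naive) past 100 bases, and 55.8%, 55.2% and 55.8% per length.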
